A study of Homo sapiens with 30 samples.

Results

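The genes described here are 34 human genes of homologous recombination and Fanconi anaemia repair. They were matched by symbol among the 60617 genes listed for each library, and all 34 were found. They fall into 5 roles: the BRCA1 and BRCA2 group (5 genes), end resection and the dissolution of joint molecules (8), strand exchange factors (8), the Fanconi core complex with its ubiquitin enzymes and substrates (11), and nuclease factors of crosslink repair (2). RNA was sequenced from HCT116 and SW480, established human colorectal cancer cell lines, 48 h after transfection with 10 nM siRNA. In each line 1 group received a control siRNA (siControl), 2 groups an siRNA against BRD8 (siBRD8-6, siBRD8-36) and 2 groups an siRNA against TIP60 (siTIP60-2, siTIP60-11). This gave 10 groups of 3 replicates and 30 libraries. All cells, controls included, were transfected with a lipid reagent. HCT116 and SW480 were kept in different media, so line and medium cannot be told apart. The labels do not say whether replicates were separate cultures, so p-values measure the spread between these libraries, which may be technical.

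Homologous recombination repairs a broken chromosome by copying the intact sister. Nucleases first trim the broken ends to single strands, BRCA2, BRCA1, PALB2 and the strand exchange factors then prepare these to pair with the sister, and the joined molecules are later taken apart by the BLM complex. The Fanconi pathway removes crosslinks between the DNA strands: its core complex attaches ubiquitin to the FANCD2 and FANCI pair, which directs nucleases to the lesion. Many of these genes are expressed mainly in S and G2 phase. BRD8, a bromodomain protein, and TIP60, the acetyltransferase listed under its gene name KAT5, are subunits of 1 chromatin complex that acetylates histones and exchanges histone H2A variants.

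Both depletions were seen in the targeted messages. BRD8 stood at 20.8% and 14.2% of its control level with siBRD8-6 and siBRD8-36 in HCT116, and at 24.5% and 21.2% in SW480. KAT5 stood at 7.36% and 9.90% with siTIP60-2 and siTIP60-11 in HCT116, and at 8% and 13.6% in SW480. KAT5 was also at 80.4% of control with siBRD8-36 in HCT116 and at 75.2% in SW480 (adjusted p = 8.03e-05 and 0.000206, edgeR's quasi-likelihood test), so the groups of that siRNA carried less of both messages. Library totals, in units of 1000000 counts, ran from 13.4 to 18.6 in HCT116 and from 7.07 to 11.7 in SW480. A member had between 20 counts (FANCB) and 2137 counts in a HCT116 library and between 10 (RAD54B) and 986 in a SW480 library, and all 34 passed the low-count filter in every fit. The second HCT116 control library stood apart from the other 2, with a chi-square per gene of 15.9 and 21.3 against them and 3.72 between them, and it gave the lowest control value for 23 of the 34 members. Of 8 colon epithelial markers the keratin KRT8 had the largest share in every group, and KRT20 was at 0 in all SW480 groups but that of siTIP60-11. The epithelial sum ran from 3410 to 4020 counts per 1000000 (CPM, scaled by TMM) in HCT116 controls and from 5670 to 7570 CPM with BRD8 siRNAs, and from 4120 to 4210 and 5120 to 5740 CPM in SW480. The 5 fibroblast markers summed to 18.6 to 21.3 CPM in HCT116 controls and to at most 69.2 CPM with siBRD8-36, the 5 leukocyte markers to at most 23.2 CPM in any group, and PTPRC was at 0 in both lines' controls; the part of these in the results was not tested. These are bulk samples, so fewer cells expressing a gene and less RNA per cell cannot be told apart.

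In control cells UBE2T, the ubiquitin-conjugating enzyme of the Fanconi pathway, had the highest level per transcript length in both lines, at 117 ± 10.8 TPM in HCT116 and 81.3 ± 1.63 TPM in SW480 (mean ± SD, n = 3, transcripts per 1000000). RAD51C, RBBP8 and FANCI held the next 3 places in both lines. SLX4, the scaffold of the crosslink nucleases, had the lowest TPM in both, at 2.93 ± 0.535 and 0.993 ± 0.299. The member median was 18 TPM in HCT116 and 11.2 TPM in SW480. RBBP8 at 77.3 ± 10.4 TPM and FANCI at 65.8 ± 11.3 TPM in HCT116 did not differ beyond their spread, nor did RBBP8 at 66.4 ± 4.57 and RAD51C at 64.6 ± 2.36 in SW480.

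In each line taken alone, most of these genes were called lower with BRD8 siRNAs in the report's fit of counts. A call needed both siRNAs of a target to act in the same direction, with the weaker of their p-values under 0.05 after Benjamini-Hochberg adjustment over all tested genes (edgeR's quasi-likelihood test). In HCT116, 21 of the 34 members were called lower with BRD8 siRNAs and 0 higher, against 12.2% of 15919 genes called lower and 12.2% called higher. At an unadjusted p under 0.05 the same test had 1 member higher, and DESeq2 called 20 lower and 0 higher. On TPM (limma on log2(TPM + 1)) the HCT116 count was 11 lower and 0 higher. All 6 BRD8 libraries lay below all 3 controls for 21 members, against 14.7% of all genes. The median of the members' mean changes over both siRNAs was -0.83 on the log2 scale, against -0.02 over all genes. In SW480, 19 members were called lower and 1 higher, against 14% and 12.9% of 15277 genes, with a member median of -0.60 and an all-gene median of 0; 20 members had all BRD8 libraries below the controls, against 18.3% of genes. When SW480 libraries were scaled by total counts only, 15 members were lower and 2 higher, and on TPM 6 and 2. Lower calls in both lines were held by 14 members: BRCA1, MRE11, EXO1, BLM, RMI1, RAD51C, RAD51D, XRCC2, XRCC3, FANCA, FANCG, UBE2T, FANCD2 and FANCI. Of these, RAD51C lost its HCT116 call in 13 of 18 alternative settings or left-out libraries, and BLM and RAD51D lost their SW480 calls in 7 each. On the TPM scale BRD8 libraries of BRCA1, MRE11, EXO1, BLM and FANCA overlapped the controls in SW480. BLM stood there at 6.45 to 6.72 TPM with siBRD8-6 and at 4.29 to 6.66 TPM in controls. In HCT116 such an overlap was seen for BRCA1, RAD51D and FANCI. The share of all genes called lower in both lines was not counted, for BRD8 or for TIP60 siRNAs. The map of changes by siRNA shows the 14 as rows that are blue in all 4 BRD8 columns.

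**Figure D1:**
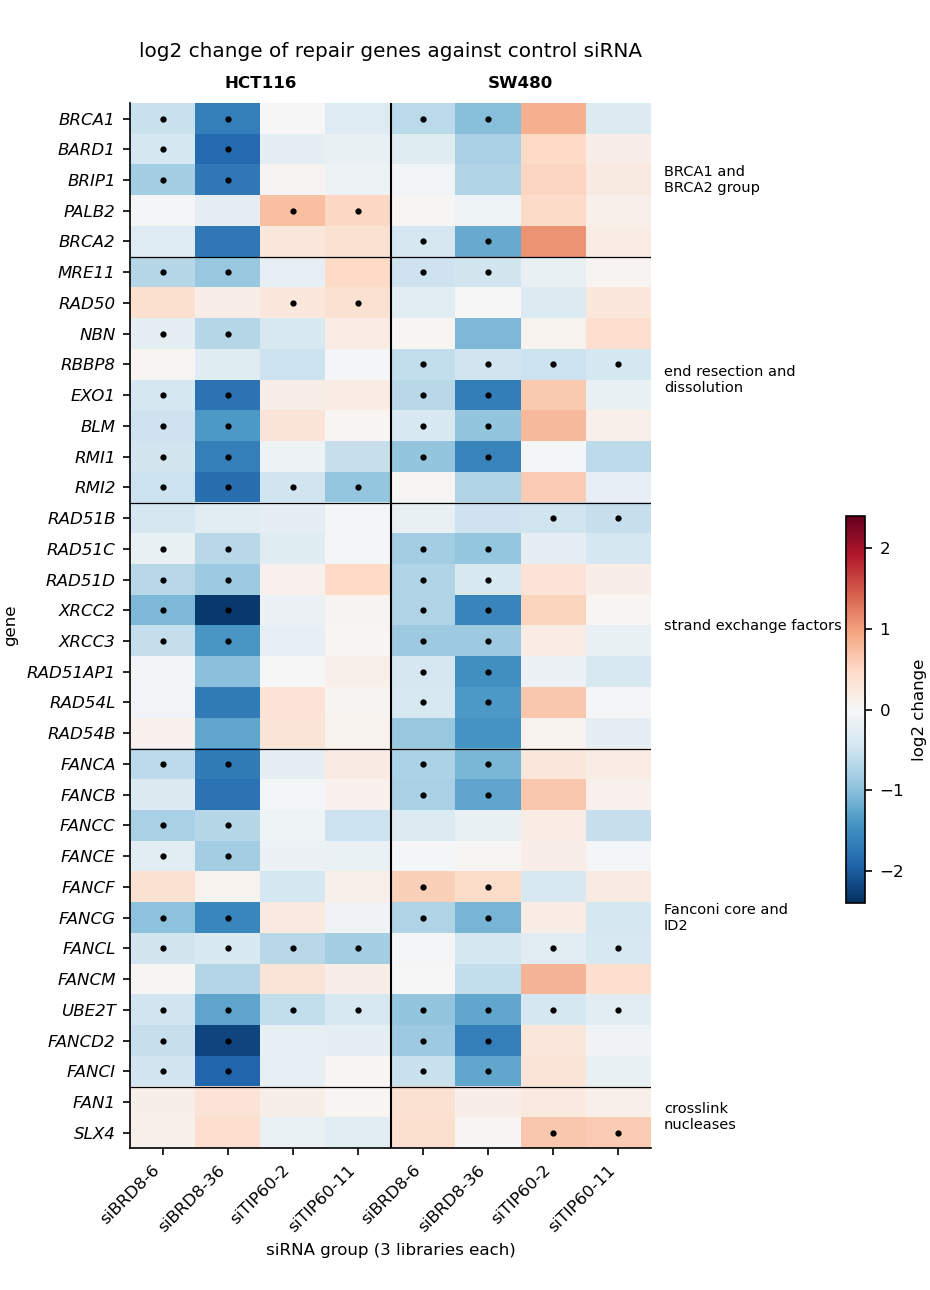
Colours give the log2 change of each of the 34 genes (rows, by role) against control siRNA for each siRNA in HCT116 and SW480 (columns, 3 libraries each); black dots mark genes called with both siRNAs of that target. The BRD8 columns are mostly blue, with medians of -0.43 and -1.26 in HCT116 and -0.40 and -0.90 in SW480, while the TIP60 columns are pale or mixed.

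Markers of proliferating cells were also lower in sum with BRD8 siRNAs. The summed level of 10 such genes, among them MKI67, TOP2A and PCNA, ran from 1650 to 1930 CPM in HCT116 controls, from 1430 to 1450 with siBRD8-6 and from 699 to 747 with siBRD8-36. In SW480 the same sums were 1530 to 1570, 931 to 1020 and 600 to 639 CPM. With BRD8 siRNAs, 6 of the 10 were called lower in HCT116 (median log2 change -0.80) and 7 in SW480 (median -1.03). Neither MKI67 nor PCNA was among the 6 in HCT116. There siBRD8-6 alone had 7 markers lower and 2 higher than control (25.7% and 24.8% of all genes). CCNE2 rose from a mean of 16 to 26.5 CPM with that siRNA. The part of the markers in the fall of the repair genes was not tested. Without the second HCT116 control library the count of members called lower with BRD8 siRNAs in that line was 21.

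The promoters of the members were searched for motifs known from cell cycle genes, since many members fell with BRD8 siRNAs. Windows from 250 bases before to 50 after the start were taken from RefSeq (GRCh38.p14), and 30 of the 34 members matched 1 or more; NBN, RMI2, RAD54B and FANCI are named only. An 8-base motif of the kind bound by E2F factors (TTTCCCGC, TTTCGCGC, TTTGCCGC or TTTGGCGC, either strand) was in the windows of 6 of the 30 members (20%), against 3.31% of all 35116 windows and 6.6% of 10841 genes that were tested in HCT116 and had a window. Those 6 are EXO1, RMI1, XRCC2, FANCA, FANCC and FANCD2. With BRD8 siRNAs all 6 were called lower in HCT116 and 5, all but FANCC, in SW480; of the 24 members without the motif 12 and 13 were called lower. The stretches below hold each motif in capitals, in the gene's own direction, followed by 2 members with no such motif and no BRD8 call, PALB2 and FAN1, for comparison. The motif lies between 5 and 12 bases after the start in EXO1 and between 22 and 29 after it in XRCC2, spans the start in FANCD2, and lies before it in the other 3 stretches; FANCC has a further match upstream of its stretch.
EXO1, chr1:241848144-241848233, plus strand: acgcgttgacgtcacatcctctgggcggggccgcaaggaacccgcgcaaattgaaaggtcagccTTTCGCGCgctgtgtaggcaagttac
RMI1, chr9:83980745-83980834, plus strand: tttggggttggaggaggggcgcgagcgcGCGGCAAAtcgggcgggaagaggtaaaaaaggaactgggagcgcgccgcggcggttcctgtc
XRCC2, chr7:152676112-152676201, minus strand: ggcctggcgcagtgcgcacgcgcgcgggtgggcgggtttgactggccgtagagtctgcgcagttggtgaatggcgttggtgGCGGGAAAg
FANCA, chr16:89816790-89816849, minus strand: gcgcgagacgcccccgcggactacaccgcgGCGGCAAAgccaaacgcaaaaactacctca
FANCC, chr9:95317680-95317769, minus strand: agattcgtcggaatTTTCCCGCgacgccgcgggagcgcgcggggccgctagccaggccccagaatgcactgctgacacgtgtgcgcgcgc
FANCD2, chr3:10026377-10026466, plus strand: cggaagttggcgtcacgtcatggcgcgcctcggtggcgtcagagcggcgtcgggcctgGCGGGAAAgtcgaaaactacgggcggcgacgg
PALB2, chr16:23641281-23641370, minus strand: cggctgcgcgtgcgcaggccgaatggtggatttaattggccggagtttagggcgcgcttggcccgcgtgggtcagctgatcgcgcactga
FAN1, chr15:30903792-30903881, plus strand: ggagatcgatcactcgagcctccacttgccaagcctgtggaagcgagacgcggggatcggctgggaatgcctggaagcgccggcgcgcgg

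Other letters searched in the same windows were near their share among tested genes. CCAAT was in 43.3% of the members with a window and 43.1% of tested genes, and the GC box GGGCGG in 76.7% and 77.2%. Of the 23 members with the GC box, 17 were called lower with BRD8 siRNAs in HCT116 and 16 in SW480. Of the 7 without it, 1 and 2 were. For CCAAT these were 8 and 9 of 13 with it, and 10 and 9 of 17 without it. Calls among all tested genes with a motif were not counted, and no link of a motif to the calls was tested. The cell cycle homology letters TTTGAA were in 3 members (10%), BRIP1, FANCC and UBE2T, against 13.4% of tested genes. A match is a description of the letters in this window and shows no binding.

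In the BRCA1 and BRCA2 group, BRD8 siRNAs lowered BRCA1, BARD1 and BRIP1 in HCT116 and BRCA1 and BRCA2 in SW480. BRIP1 encodes a helicase that binds BRCA1. Its HCT116 control libraries held 34.8, 27.4 and 31.5 CPM, those of siBRD8-6 18.9, 17.4 and 17.4 CPM, and those of siBRD8-36 10.3, 9.74 and 8.77 CPM. All 6 BRD8 libraries lay below all 3 controls, and the mean change was -1.26 ± 0.080 (log2, SE; adjusted p = 1.61e-06, edgeR's quasi-likelihood test). The BRIP1 level in SW480 was low from the start, at 6.04, 8.01 and 6.87 CPM in controls. The siBRD8-6 libraries, at 6.85, 6.57 and 6.49 CPM, overlapped them, and those of siBRD8-36, at 3.88, 4.22 and 4.59 CPM, lay below. The ubiquitin ligase pair BRCA1 and BARD1 changed by -1.10 ± 0.11 and -1.14 ± 0.094 in HCT116. In SW480 BRCA1 changed by -0.83 ± 0.091, and BARD1 by -0.54 ± 0.12 with an adjusted p of 0.101 in edgeR's quasi-likelihood test.

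BRCA2, a mediator of strand exchange, had 22.4, 14.7 and 21.5 CPM in HCT116 controls, 15.6, 15.7 and 16.2 CPM with siBRD8-6, and 6.45, 5.17 and 6.18 CPM with siBRD8-36. The siBRD8-6 libraries lay within the range of the controls, and BRCA2 was not called there (mean change -1.02 ± 0.11, adjusted p = 0.0648, edgeR's quasi-likelihood test). In SW480 its controls held 26, 18.7 and 21.7 CPM, siBRD8-6 16, 17.5 and 16.9, and siBRD8-36 8.53, 9.99 and 10.2. There all BRD8 libraries lay below the controls in CPM, and the mean change was -0.80 ± 0.11 (adjusted p = 0.0114, edgeR's quasi-likelihood test). This BRCA2 call was lost in 3 of 18 alternatives. On the TPM scale the SW480 controls of BRCA2 ran from 3.04 to 6.24. Both siBRD8-6, at 5.83 to 6.19, and siBRD8-36, at 1.63 to 3.81, overlapped them. PALB2, the bridge between BRCA1 and BRCA2, was called in neither line: it had 20.6, 16.8 and 19.8 CPM in HCT116 controls, 18, 17.7 and 20.5 with siBRD8-6, and 17, 15.5 and 16.5 with siBRD8-36, a mean change of -0.13 ± 0.072. In SW480 PALB2 held 24.2, 23.5 and 23.5 CPM in controls, 22.1, 24 and 26.1 with siBRD8-6, and 22.4, 21.4 and 21.9 with siBRD8-36, a change of -0.04 ± 0.080. Its siBRD8-6 libraries overlapped the controls in both lines.

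Among the resection and dissolution genes, BRD8 siRNAs lowered 6 of 8 in HCT116 and 5 of 8 in SW480. RMI1, which with BLM and RMI2 takes joint molecules apart, had the largest change in SW480. Its control libraries held 37.5, 36.7 and 37.5 CPM, those of siBRD8-6 19.7, 20.3 and 17.9 CPM, and those of siBRD8-36 11.5, 14 and 11.3 CPM. The groups did not overlap, and the mean change was -1.28 ± 0.089 (adjusted p = 2.78e-08, edgeR's quasi-likelihood test), beside -1.04 ± 0.067 in HCT116. EXO1, the exonuclease of long-range resection, had 15.8, 21.8 and 22.4 CPM in SW480 controls, 13.8, 12.9 and 11.4 with siBRD8-6, and 6.69, 6.66 and 5.58 with siBRD8-36. The first SW480 control library was the lowest for EXO1 and still lay above all 6 BRD8 libraries in CPM. On the TPM scale that control, at 7.58, lay within the range of siBRD8-6, at 6.34 to 9.98. It lay above siBRD8-36, at 4.57 to 5.61 TPM. The EXO1 change was -1.16 ± 0.11 in SW480 (adjusted p = 0.000152, edgeR's quasi-likelihood test) and -1.10 ± 0.082 in HCT116.

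The 3 subunits of the MRE11 complex, which binds broken ends first, did not move alike. MRE11, its nuclease, fell in both lines, by 0.79 on the log2 scale in HCT116 and by 0.47 in SW480. NBN, its signalling subunit, was lower in HCT116 (-0.46 ± 0.055). In SW480 NBN was at 47 to 53.4 CPM with siBRD8-6 against 46.9 to 50.5 CPM in controls, and at 22.2 to 25.1 CPM with siBRD8-36. RAD50, its bridging ATPase, was called in neither line and had mean changes of 0.27 ± 0.053 and -0.14 ± 0.10. RBBP8, the starter of resection also known as CtIP, had 84.5, 65.4 and 82.1 TPM in HCT116 controls, 88, 77.4 and 77.5 with siBRD8-6, and 60.9, 56.6 and 61.3 with siBRD8-36. Its siBRD8-6 libraries overlapped the controls, those of siBRD8-36 lay below them, and the mean change in the count test was -0.13 ± 0.051. In SW480, RBBP8 held 123, 120 and 115 CPM in controls and 74.7 to 89.4 CPM in the 6 BRD8 libraries, a change of -0.53 ± 0.052 (adjusted p = 5.99e-07, edgeR's quasi-likelihood test). In TPM its SW480 controls ran from 61.7 to 70.8. The siBRD8-6 libraries, at 50.6 to 57.8 TPM, lay below them, and those of siBRD8-36, at 57.6 to 64.1 TPM, overlapped them.

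Of the strand exchange factors, XRCC2, which works in a complex with RAD51B, RAD51C and RAD51D, had the largest BRD8 change of any member in HCT116. Its controls held 20.6, 15.7 and 20.8 CPM, siBRD8-6 9.32, 8.34 and 9.67 CPM, and siBRD8-36 4.38, 3.63 and 3.49 CPM. Every BRD8 library was under every control, and siBRD8-36 was under siBRD8-6; the mean change was -1.69 ± 0.096, which left 30.9% of the control level (adjusted p = 4.64e-07, edgeR's quasi-likelihood test). In SW480 XRCC2 held 17.6, 21.8 and 17.6 CPM in controls, 12.1, 10.9 and 11.5 with siBRD8-6, and 6.4, 5.88 and 6.68 with siBRD8-36, a mean change of -1.15 ± 0.11 (adjusted p = 2.84e-05, edgeR's quasi-likelihood test). XRCC3, RAD51D and RAD51C also fell in both lines: by 0.99, 0.77 and 0.42 on the log2 scale in HCT116 and by 0.87, 0.54 and 0.87 in SW480. The RAD51C call in HCT116 (adjusted p = 0.0471, edgeR's quasi-likelihood test) was kept in 5 of 18 alternatives and lost in 13, and the RAD51D call in SW480 was lost in 7. RAD51B was called in neither line, with -0.34 ± 0.14 and -0.34 ± 0.11. RAD51B had the lowest CPM of these factors in HCT116 controls, and ran from 2.57 to 4.69 CPM over the BRD8 and control libraries.

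The RAD54 relatives and RAD51AP1 differed between the BRD8 siRNAs. RAD54L, a motor protein of strand exchange, was at 23.4 to 25.5 CPM with siBRD8-6 in HCT116, against 24.8 to 26 CPM in controls, and at 6.98 to 8.67 CPM with siBRD8-36. RAD51AP1, which stimulates strand pairing, was at 22.8 to 26.6, 24 to 26.7 and 12.3 to 13.1 CPM in the same order. Neither was called in HCT116, and both fell in SW480, by 0.88 and 0.93 on the log2 scale; the RAD54L call was lost in 11 of 18 alternatives. RAD54B, a relative of RAD54L, was called in neither line; its first siBRD8-6 library in SW480 held 1.2 CPM and the other 2 held 9.12 and 5.23 CPM, so its standard error was 0.40. The annotation places another coding gene, FSBP, on the same strand within RAD54B, and the counts of the 2 genes are less certain for that.

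Fanconi core genes and the FANCD2 and FANCI pair made up the largest role, with 8 of 11 called lower by BRD8 siRNAs in HCT116 and 6 lower and 1 higher in SW480. FANCD2, a substrate of the pathway's ubiquitin ligase, had 62.8, 48.5 and 66.8 CPM in HCT116 controls, 40.7, 39.9 and 40.5 with siBRD8-6, and 14, 12.6 and 12.2 with siBRD8-36. In SW480 FANCD2 held 29.5, 31.3 and 26.3 CPM in controls, 15.4, 15.4 and 16.9 with siBRD8-6, and 9.02, 9.77 and 9.17 with siBRD8-36. No groups overlapped in either line, and the mean FANCD2 changes were -1.38 ± 0.081 and -1.26 ± 0.091 (adjusted p = 0.000116 and 1.74e-07, edgeR's quasi-likelihood test). FANCI, its partner, changed by -1.18 ± 0.057 and -0.89 ± 0.063. FANCG, a core subunit, had the smallest SE of the 4 largest changes in HCT116. Its controls held 39.1, 38.8 and 39.6 CPM, siBRD8-6 19.9, 21.1 and 18.5, and siBRD8-36 13.4, 13 and 13.5. Its change was -1.27 ± 0.052 in HCT116 (adjusted p = 7.62e-10, edgeR's quasi-likelihood test) and -0.93 ± 0.070 in SW480.

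UBE2T and FANCA, a core subunit, fell in both lines, by 0.87 and 1.15 on the log2 scale in HCT116 and by 1.10 and 0.92 in SW480. FANCC and FANCE, core subunits, and FANCL, the ubiquitin ligase of the complex, were lower in HCT116 (-0.73 ± 0.078, -0.56 ± 0.067 and -0.41 ± 0.095). FANCE had the smallest BRD8 change in SW480, with 9.47, 11.1 and 9.86 CPM in controls, 9.74, 10.1 and 9.78 with siBRD8-6, and 10.5, 10.9 and 9.57 with siBRD8-36. Those groups overlapped throughout, and the change was -0.01 ± 0.11. FANCB, a core subunit encoded on the X chromosome, was at 1.16 to 1.81 CPM with siBRD8-36 in HCT116 against 3.31 to 5.3 CPM in controls, but siBRD8-6, at 3.46 to 3.9 CPM, overlapped the controls. FANCF was the exception of this role: it rose in SW480 from 14.5 to 16.4 CPM in controls to 19.5 to 25.8 CPM in the 6 BRD8 libraries, a change of 0.51 ± 0.095 (adjusted p = 0.00209, edgeR's quasi-likelihood test), beside 0.23 ± 0.093 without a call in HCT116. FANCM, the anchor of the complex on DNA, was called in neither line (-0.35 ± 0.14 and -0.30 ± 0.14).

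The crosslink nuclease factors were not called with BRD8 siRNAs in either line. FAN1, a nuclease that acts with FANCD2, had 35.6 to 40.5 CPM in HCT116 controls and 41.2 to 48.2 CPM in the 6 BRD8 libraries, all above the controls (14.6% of all genes), with a change of 0.23 ± 0.058 and an adjusted p of 0.162 in edgeR's quasi-likelihood test. In SW480 its 6 BRD8 libraries, at 42.7 to 51.6 CPM, lay at or above the highest control, at 42.7 CPM. SLX4 changed by 0.26 ± 0.079 in HCT116 and 0.21 ± 0.16 in SW480.

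**Figure D2:**
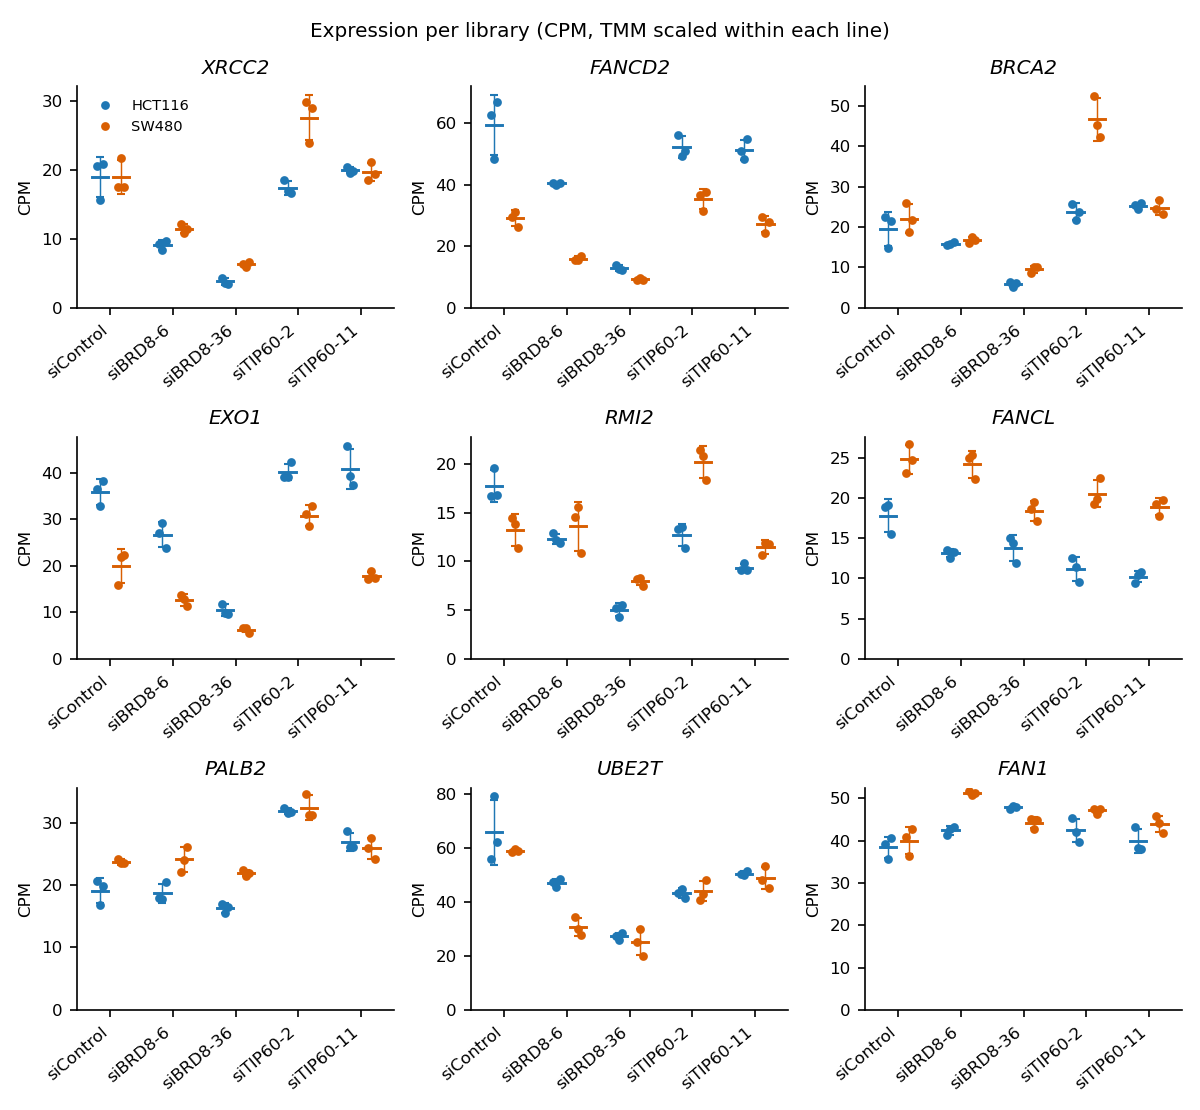
CPM per library (points), group mean (bar) and SD (whisker) for 9 of the genes in HCT116 and SW480, by siRNA on the horizontal axis; each panel starts at 0. XRCC2 in HCT116 falls from a control mean of 19 CPM to 9.11 and 3.83 CPM with the BRD8 siRNAs, while FAN1 stays between 35.6 and 51.6 CPM in the control and BRD8 libraries of both lines.

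The siBRD8-36 groups had the lower values. Tested directly, 26 members were lower with siBRD8-36 than with siBRD8-6 in HCT116 and 2 higher, against 28.3% and 28.4% of all genes. In SW480, 21 were lower and 1 higher, against 27.0% and 25.9%, or 52.8% in either direction. The median difference of the members was -0.81 in HCT116 and -0.39 in SW480. Lower levels with siBRD8-36 in both lines were found for 18 members, and the share of all genes was not counted. In HCT116 the differences were largest for FANCD2 (-1.64 ± 0.11), RAD54L (-1.60 ± 0.083), BARD1 (-1.44 ± 0.12) and FANCI (-1.44 ± 0.071). Those higher with siBRD8-36 were SLX4 and FAN1 in HCT116 and RAD51D in SW480. In the same libraries siBRD8-36 had the lower BRD8 level, the lower KAT5 level and the lower sum of proliferation markers given above, and the part of each in the difference was not tested. Both siRNA comparisons with control share the same control libraries.

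Few of these genes were called with both TIP60 siRNAs. In HCT116, 3 of 34 were called lower and 2 higher, against 14.1% and 13.7% of all genes and 27.9% in either direction, with a member median of -0.06 and an all-gene median of -0.03. In SW480, 4 were called lower and 1 higher, against 12.1% and 11.5%, with medians of 0.14 and 0.01. FANCL and UBE2T were called lower in both lines. With the mean of both siRNAs tested in 1 contrast, 9 members were lower and 7 higher in HCT116, and 7 lower and 12 higher in SW480. That rule is looser, and the shares of all genes above do not apply to it. No share under it is given here, so these counts show no excess or lack. Without the second HCT116 control library 6 were called lower and 2 higher in HCT116, and the SW480 count fell to 2, both lower, without the second SW480 control library. TIP60 and BRD8 comparisons share the control libraries of their line.

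**Figure D3:**
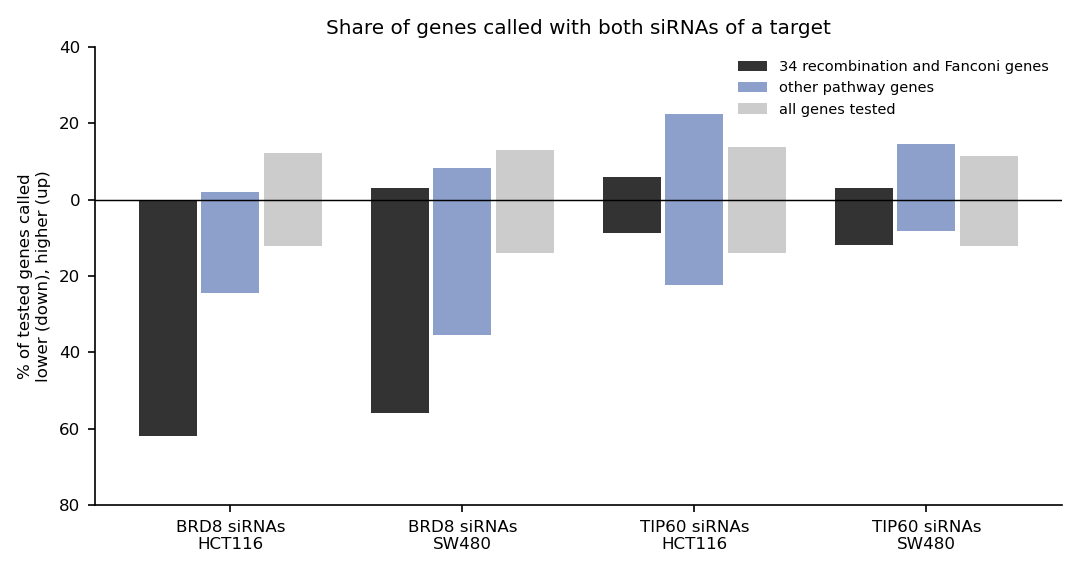
Bars give the percentage of tested genes called lower (down) or higher (up) with both siRNAs of a target in each line, for the 34 genes, the other genes of recombination and crosslink repair, and all genes tested. With BRD8 siRNAs 61.8% and 55.9% of the 34 genes were called lower in HCT116 and SW480, and with TIP60 siRNAs 8.82% and 11.8%.

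FANCL, the ubiquitin ligase, had the largest TIP60 change in HCT116. It held 18.9, 19.1 and 15.5 CPM in controls, 12.5, 11.4 and 9.6 with siTIP60-2, and 9.44, 10.4 and 10.8 with siTIP60-11. All 6 TIP60 libraries lay below the 3 controls in CPM. On the TPM scale siTIP60-2, at 13 to 18.4, overlapped the controls, at 17.2 to 23.1. The FANCL change was -0.74 ± 0.097 (adjusted p = 0.000124, edgeR's quasi-likelihood test), with -0.33 ± 0.087 in SW480 (adjusted p = 0.0488, same test). That SW480 call was lost in 12 of 18 alternatives. UBE2T, which works directly with FANCL, held 55.8, 79.1 and 62 CPM in HCT116 controls, 43.4, 44.8 and 41.3 with siTIP60-2, and 50.2, 49.7 and 51.3 with siTIP60-11. In SW480, UBE2T held 58.2, 59.6 and 58.7 CPM in controls, 40.6, 43 and 48 with siTIP60-2, and 48.1, 53.1 and 44.9 with siTIP60-11. All 6 TIP60 libraries lay below the controls in each line, and the changes were -0.49 ± 0.076 and -0.35 ± 0.087 (adjusted p = 0.00327 and 0.0470, edgeR's quasi-likelihood test). The UBE2T call in SW480 was lost in 10 of 18 alternatives.

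RMI2 in HCT116 held 16.7, 19.6 and 16.8 CPM in controls, 13.3, 13.5 and 11.4 with siTIP60-2, and 9.14, 9.83 and 9.06 with siTIP60-11, a change of -0.69 ± 0.086 (adjusted p = 0.00118, edgeR's quasi-likelihood test). The siTIP60-11 libraries were the lowest and none of the 6 reached a control. PALB2 went the other way, with 20.6, 16.8 and 19.8 CPM in controls, 32.4, 31.5 and 31.7 with siTIP60-2, and 28.6, 26.1 and 26.1 with siTIP60-11. Every TIP60 library lay above every control in CPM, and the PALB2 change was 0.61 ± 0.071 (adjusted p = 9.40e-05, edgeR's quasi-likelihood test). In TPM its siTIP60-11 libraries, at 10.4 to 13.2, overlapped the controls, at 8.13 to 10.5. RAD50 also rose in HCT116, by 0.31 ± 0.053. FANCA and BRIP1 had the smallest changes there, -0.01 ± 0.051 and -0.02 ± 0.075. FANCA held 66.3, 58.8 and 63.9 CPM in controls, 56.7, 53 and 53.3 with siTIP60-2, and 72, 73.8 and 69.7 with siTIP60-11, so that 1 siRNA lay below the controls and the other above them. BRIP1 held 34.8, 27.4 and 31.5 CPM in controls, 36.9, 30.6 and 31.2 with siTIP60-2, and 29.7, 28.7 and 28.3 with siTIP60-11, and all groups overlapped the controls.

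In SW480, SLX4 had the largest TIP60 change among called members. It held 6.59, 4.5 and 6.72 CPM in controls, 8.98, 9.24 and 9.7 with siTIP60-2, and 8.61, 9.87 and 8.71 with siTIP60-11, and rose by 0.63 ± 0.15 (adjusted p = 0.00815, edgeR's quasi-likelihood test). None of its TIP60 libraries overlapped the controls. RAD51B held 18.7, 15.9 and 17.8 CPM in controls, 11.7, 13.9 and 12.1 with siTIP60-2, and 12.5, 10.1 and 12.7 with siTIP60-11, a change of -0.52 ± 0.11 (adjusted p = 0.00607, edgeR's quasi-likelihood test). RBBP8 held 123, 120 and 115 CPM in controls, 83.9, 82.9 and 85.8 with siTIP60-2, and 87.8, 92.9 and 85.5 with siTIP60-11, a change of -0.47 ± 0.052 (adjusted p = 3.42e-06, edgeR's quasi-likelihood test). For both genes every TIP60 library was under every control in CPM. On the TPM scale the siTIP60-2 libraries of RBBP8, at 61.8 to 63.5, overlapped the controls, at 61.7 to 70.8. RAD51B controls ran from 23.4 to 34.9 TPM. Its siTIP60-2 libraries, at 19.7 to 23.7 TPM, overlapped them, and those of siTIP60-11, at 19.5 to 23.4 TPM, reached the lowest control. XRCC3 and RAD50 had the smallest changes in SW480, -0.01 ± 0.081 and -0.04 ± 0.10. XRCC3 held 37.8, 38.7 and 33 CPM in controls, 41.2, 39.9 and 42 with siTIP60-2, and 30.7, 30.8 and 34.8 with siTIP60-11. RAD50 held 65.8, 66.9 and 82.2 CPM in controls, 58.8, 55.6 and 55.9 with siTIP60-2, and 88.6, 81.2 and 84.7 with siTIP60-11. In CPM the siTIP60-2 libraries lay above the controls for XRCC3 and below them for RAD50. Those of siTIP60-11 overlapped the controls for both genes in CPM. In TPM the RAD50 controls ran from 21.1 to 27. Both TIP60 siRNAs lay above them, siTIP60-2 at 27.5 to 29 and siTIP60-11 at 28.8 to 31.9 TPM.

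In HCT116 siTIP60-2 alone had 10 members lower and 6 higher than control (25.4% and 24.3% of all genes), and siTIP60-11 had 6 lower and 7 higher (27.7% and 25.9%). In SW480 siTIP60-2 alone had 17 members higher and 7 lower than control (25.1% and 24.4% of all genes), and siTIP60-11 had 3 higher and 11 lower (23.4% and 24.2%). Tested directly, 18 members were lower with siTIP60-11 than with siTIP60-2 and 4 higher, against 23.4% and 21.9% of all genes and 45.3% in either direction. BRCA1 held 63.1, 55.4 and 52.2 CPM with siTIP60-2 and 23.6, 24.7 and 27.4 CPM with siTIP60-11, around controls of 32.1, 33.2 and 29.3 CPM. BRCA2 held 52.5, 45.1 and 42.3 CPM with siTIP60-2, above all controls, and 24.5, 26.8 and 23.3 CPM with siTIP60-11, which overlapped them. The direct differences were -1.17 ± 0.092 for BRCA1 and -0.91 ± 0.10 for BRCA2 (adjusted p = 4.53e-11 and 2.62e-08, edgeR's quasi-likelihood test). Proliferation markers summed to 1690 to 1780 CPM with siTIP60-2 and 1370 to 1410 CPM with siTIP60-11 in SW480, and their part in this difference was not tested. In HCT116, 8 members were lower with siTIP60-11 and 9 higher, against 23.5% and 22.5% of all genes, or 46.0% in either direction.

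Set directly against TIP60 siRNAs, which leaves the control libraries out, BRD8 siRNAs gave lower levels of 27 members in HCT116 and higher levels of 5, against 31.7% and 30% of all genes. In SW480, 26 were lower and 1 higher, against 30.2% and 29.7%. The median differences were -0.76 and -0.77, and 25 members were lower in both lines, a count with no share of all genes beside it. Here the siRNAs of a target were averaged, so a member could pass on 1 of them. XRCC2 differed most in both lines, by -1.66 ± 0.082 in HCT116 and -1.45 ± 0.084 in SW480. Its libraries held 18.6, 16.9 and 16.7 CPM with siTIP60-2 and 20.4, 19.6 and 19.9 CPM with siTIP60-11 in HCT116. In SW480 they held 29.8, 23.9 and 29 CPM with siTIP60-2 and 18.6, 21.2 and 19.4 CPM with siTIP60-11. All were above every BRD8 library of their line. FANCG held 45.6, 44.9 and 47 CPM with siTIP60-2 and 38.1, 37 and 35.6 CPM with siTIP60-11 in HCT116, all above its BRD8 libraries, a difference of -1.34 ± 0.044. BRCA2 held 25.8, 21.7 and 23.8 CPM with siTIP60-2 and 25.4, 24.4 and 25.9 CPM with siTIP60-11 in HCT116, and differed by -1.33 ± 0.088 there and by -1.42 ± 0.080 in SW480 (adjusted p = 2.50e-10 and 1.46e-14, edgeR's quasi-likelihood test).

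FANCB in SW480 held 8.65, 6.04 and 9.71 CPM in controls, 3.97, 6.12 and 4.13 with siBRD8-6, 2.62, 3.55 and 3.99 with siBRD8-36, 11.5, 12.2 and 14.3 with siTIP60-2, and 9.36, 9.44 and 7.53 with siTIP60-11. The TIP60 libraries lay above all BRD8 libraries in CPM, and the difference was -1.40 ± 0.14 (adjusted p = 9.30e-10, edgeR's quasi-likelihood test). In TPM siTIP60-11, at 4.38 to 6.16, overlapped siBRD8-6, at 2.31 to 4.49. Members higher with BRD8 than with TIP60 siRNAs in HCT116 were SLX4 (0.46 ± 0.065), FANCF (0.38 ± 0.076), FANCL (0.33 ± 0.082), RBBP8 (0.15 ± 0.042) and FAN1 (0.13 ± 0.047); in SW480 it was FANCF (0.60 ± 0.074). PALB2, which BRD8 siRNAs left uncalled, was lower with BRD8 than with TIP60 siRNAs in both lines (-0.74 ± 0.057 and -0.33 ± 0.061).

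The lines were compared through the difference of their responses, fitted on all 30 libraries. The BRD8 response of 12 members was higher in SW480 than in HCT116 and that of 4 lower, against 21.9% and 12.5% of 17411 genes, where the median of all genes was 0.10 and that of the members 0.19. With RLE size factors 9 were higher and 4 lower, with medians of 0.02 and 0.11. BRIP1 differed most, by 0.93 ± 0.15 (adjusted p = 1.06e-05, edgeR's quasi-likelihood test). RMI2 differed by 0.88 ± 0.15 and BARD1 by 0.67 ± 0.15. RMI2 held 12.9, 12.2 and 11.9 CPM with siBRD8-6 and 5.26, 4.3 and 5.55 CPM with siBRD8-36 in HCT116, all below controls. In SW480 it held 14.4, 13.8 and 11.4 CPM in controls, 14.5, 15.6 and 10.8 with siBRD8-6, which overlapped them, and 8.14, 8.33 and 7.48 with siBRD8-36, which did not.

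BARD1 held 23.2, 18.9 and 27 CPM in HCT116 controls, 17.3, 18.1 and 16.4 with siBRD8-6, and 6.8, 5.58 and 6.61 with siBRD8-36. In SW480 BARD1 held 10.3, 10.5 and 12.6 CPM in controls, 9.25, 8.23 and 9.61 with siBRD8-6, and 5.91, 7.33 and 6.18 with siBRD8-36, all below the controls by less. RAD51C, RBBP8, RAD50 and RAD51AP1 were the members with the lower BRD8 response in SW480 (-0.39, -0.34, -0.34 and -0.33). Across the 34 members the BRD8 changes of the lines had a Pearson r of 0.74 and a Spearman rho of 0.66, and the 13888 genes tested in both had 0.41 and 0.46; genes are not independent samples, and this is a description.

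**Figure D4:**
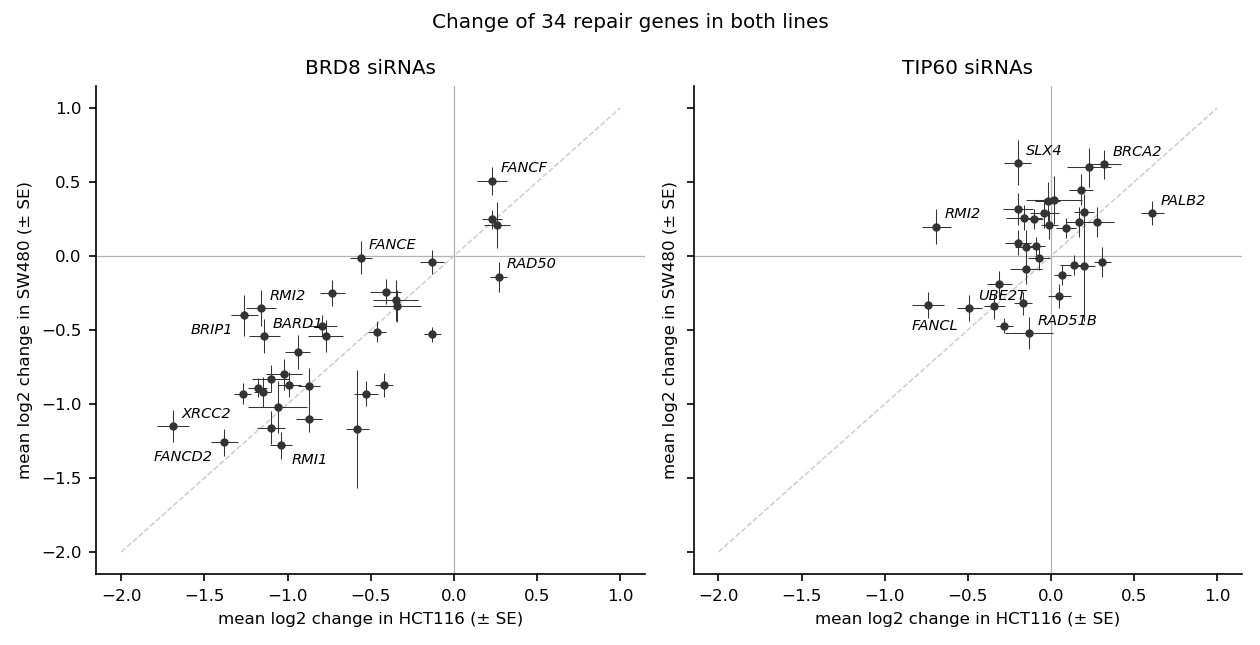
Each point is 1 of the 34 genes, with its mean log2 change over both siRNAs of a target in HCT116 (horizontal) and SW480 (vertical) and bars of 1 SE; the dashed line marks equal changes. Most BRD8 points lie in the lower left, with XRCC2 at -1.69 and -1.15, while the TIP60 points gather around 0.

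For TIP60, 10 members had the higher response in SW480 and 3 the lower, against 18.0% and 13.1% of all genes; with total counts only it was 14 and 0. RMI2 differed by 0.94 ± 0.14 (adjusted p = 4.70e-06, edgeR's quasi-likelihood test), with 21.4, 20.8 and 18.3 CPM with siTIP60-2 and 10.6, 11.9 and 11.8 CPM with siTIP60-11 in SW480: the first siRNA lay above the controls and the second overlapped them. SLX4 differed by 0.87 ± 0.17; in HCT116 it held 14.4, 11.4 and 14 CPM in controls, 12.6, 11.8 and 11.4 with siTIP60-2, and 10.9, 10.7 and 12.2 with siTIP60-11, which overlapped. BARD1 differed by 0.55 ± 0.14. It held 20.8, 18.2 and 20.8 CPM with siTIP60-2 and 20.2, 19.7 and 21.6 CPM with siTIP60-11 in HCT116, and both groups overlapped the controls given above. In SW480 it held 16.2, 15.8 and 14.5 CPM with siTIP60-2, above the controls, and 12.2, 13 and 11.8 CPM with siTIP60-11, which overlapped them. The TIP60 changes of the lines had an r of 0.44 and a rho of 0.44 over the members, near the 0.41 and 0.46 of all genes. Without the second HCT116 control library 20 members differed between lines in the BRD8 response and 15 in the TIP60 response, instead of 16 and 13, and without the third SW480 control library 8 differed in the TIP60 response.

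Control levels of the members also differed between lines, beside library totals of 7.07 to 7.69 in SW480 controls and 13.4 to 17.8 in HCT116 controls, in units of 1000000 counts. Depth and line cannot be told apart here. In SW480 controls 19 members were lower than in HCT116 controls and 8 higher, against 41.5% and 37.0% of all genes. BRIP1 was lower by the most (-2.26 ± 0.12), followed by FANCA (-1.46 ± 0.083) and BLM (-1.31 ± 0.10). RAD51B (2.04 ± 0.14) and MRE11 (1.57 ± 0.086) were the members most above HCT116.

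Other genes of recombination and crosslink repair, 50 in all, were described in the same way. With BRD8 siRNAs 12 of 49 tested (24.5%) were lower and 1 higher in HCT116 (median -0.25), against 12.2% of all genes in each direction. In SW480 17 of 48 (35.4%) were lower and 4 higher (median -0.28), against 14% and 12.9%. Among the largest falls, PSMC3IP and MND1, which act as a pair, changed by -1.13 ± 0.074 and -1.05 ± 0.083 in HCT116 and by -0.97 ± 0.11 and -1.33 ± 0.13 in SW480. The nuclease subunit EME1 changed by -1.12 ± 0.070 and -1.24 ± 0.16, FIGNL1, an ATPase of recombination, by -0.94 ± 0.060 and -1.02 ± 0.059, and its partner FIRRM by -0.79 ± 0.10 and -1.12 ± 0.099. With TIP60 siRNAs 11 were lower and 11 higher in HCT116 (median 0.08; 22.4% each, against 14.1% and 13.7% of all genes). In SW480 4 were lower and 7 higher (median 0.03; 8.33% and 14.6%, against 12.1% and 11.5%). SWI5 was lower in both lines (-0.68 ± 0.11 and -0.90 ± 0.10), and MCM9 (0.55 ± 0.073 and 0.56 ± 0.12) and the resolvase GEN1 (0.44 ± 0.067 and 0.59 ± 0.076) were higher in both. In HCT116 TIP60 siRNAs also lowered ERCC1, a subunit of a crosslink nuclease (-0.75 ± 0.052), and raised SWSAP1 and SFR1 (0.86 ± 0.17 and 0.65 ± 0.065). RECQL, a helicase, rose in SW480 (0.59 ± 0.059).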

How the data were processed

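RNA libraries of 30 samples, made with a directional kit, were analysed. Trimming with Trimmomatic 0.33, alignment by STAR 2.7.3a and quantification by RSEM 1.3.3 on hg38 are listed by the submitters' processing notes. The annotation release, like the strand setting, was not given in the sources used here. Per the file headers, each deposited table holds an expected count per gene, which divides reads matching several genes and need not be whole. The same deposited tables hold TPM values, which are corrected for transcript length. Expected counts were rounded and fitted with edgeR 4.0.16 in R 4.3.3 (quasi-likelihood, robust, TMM, expression filter), on the 15 libraries of a line, and on all 30 for line differences. A target was called from both siRNAs at 0.05 after Benjamini-Hochberg adjustment. The SE of a log2 change was its size over the root of the F statistic. The fits were tested on simulated data for the BRD8 comparisons with control only, and the outcome is not given here. Alternatives used DESeq2 1.42.0, limma 3.58.1 on log2(TPM + 1), other scalings, filters and contrasts, and left out each library.

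The members, lists and rules were chosen with earlier results of these data known. By rule, values in every library are given for the 4 called members with the largest change per target and line, the 3 with the largest difference between targets and between lines, and the 2 with the smallest change. Other pathway genes named are the 4 called with the largest change per comparison and the same genes in the other line. Further members given by library (BRCA1 and BRCA2 in SW480 with TIP60 siRNAs, BRCA2 with BRD8 siRNAs, RAD54B) were chosen after their values were seen. By GENCODE 29 (GRCh38), 14 members overlap another coding gene, 20 overlap a gene on the other strand, and 4 (MRE11, RBBP8, RAD51AP1 and FANCD2) have a named pseudogene, so their counts are less certain. Library totals, in units of 1000000 counts, were 13.4 to 18.6 in HCT116 and 7.07 to 11.7 in SW480. 1 further result is not reported here.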

Additional observations from a re-analysis of the deposited data

Results flagged for a closer look

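The BRD8 response differed between the lines for 16 of the 34 members, against 34.4% of 17411 genes in either direction. This was the test of the difference itself (log2 response in SW480 minus that in HCT116, edgeR's quasi-likelihood test on all 30 libraries, Benjamini-Hochberg adjusted). The difference was 0.93 for BRIP1, 0.88 for RMI2, 0.67 for BARD1, 0.62 for FANCE, 0.61 for XRCC2, 0.55 for FANCC, 0.41 for FANCG and 0.40 for MRE11. It was 0.36 for FANCF and for FANCI, 0.35 for BLM and 0.29 for FANCA. It was -0.39 for RAD51C, -0.34 for RAD50 and for RBBP8, and -0.33 for RAD51AP1. Of these, RAD50 had a mean change above 0 in HCT116 and below 0 in SW480, and FANCF was above 0 in both.

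The TIP60 response differed between the lines for 13 of the 34 members in the same test, against 31.1% of 17411 genes in either direction. It differed by 0.94 for RMI2, 0.87 for SLX4, 0.55 for BARD1, 0.46 for BRCA1 and 0.45 for FANCL. Further values were 0.43 for BRIP1, 0.39 for NBN, 0.37 for XRCC2, 0.34 for FANCD2 and 0.26 for FANCA. The difference was -0.32 for RAD50, -0.29 for PALB2 and -0.28 for RAD51AP1. All genes together had medians of 0.10 (BRD8) and 0.06 (TIP60) in these tests.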

How the results depend on the processing

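Counts are of members called. In the comparisons with control no member's call changed sign under the alternatives run. With limma on log2(TPM + 1) the BRD8 count was 11 in HCT116 (21 in the report) and 8 in SW480 (20), the TIP60 count 2 and 1 (5 and 5), the count between TIP60 siRNAs in HCT116 10 (17) and that between BRD8 siRNAs in SW480 13 (22). Testing the mean of both siRNAs, a looser rule, gave 32 for BRD8 and 16 for TIP60 in HCT116, and 19 for TIP60 in SW480. These 3 counts have no share of all genes beside them. DESeq2 gave 3 for TIP60 in SW480. The cause of these shifts was not tested. Over all alternatives and left-out libraries, 11 of the 21 and 7 of the 20 BRD8 calls, and 2 and 0 of the 5 TIP60 calls, were kept throughout (HCT116, SW480).

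Leaving out 1 library at a time gave 18 to 21 (BRD8, HCT116), 17 to 21 (BRD8, SW480), 5 to 8 (TIP60, HCT116; 8 without control replicate 2) and 2 to 5 (TIP60, SW480; 2 without control replicate 2, and 3 without siTIP60-2 replicate 1, siTIP60-2 replicate 2 or siTIP60-11 replicate 1). Between siRNAs it gave 26 to 27 and 19 to 23 for BRD8 and 14 to 16 and 19 to 21 for TIP60 (HCT116, SW480), between targets 31 to 32 and 27 to 28, between line responses 11 to 20 (BRD8) and 8 to 15 (TIP60; 8 without SW480 control replicate 3), and between control lines 24 to 27.

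Same-number correlations of deviations ran from -0.06 to 0.14 in HCT116 (median 0.04) and from -0.16 to 0.17 in SW480 (median -0.01). Pairs with different numbers had medians of -0.02 and 0. Correlations this weak cannot show whether the replicate numbers pair the libraries. A replicate block gave 23 (BRD8) and 6 (TIP60) in HCT116, 19 and 4 in SW480, 29 and 23 between BRD8 siRNAs, 18 and 22 between TIP60 siRNAs, 32 and 27 between targets, 15 and 12 between line responses and 25 between control lines.

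Scaling moved the balance over all genes in SW480. For BRD8, 2140 genes were lower and 1970 higher in the report's fit, 1416 and 2866 with total counts only (median 0.11), and 548 and 3144 on TPM, where the all-gene median was 0.23 and the member median -0.21. For TIP60 these were 1852 and 1754, 1285 and 2364, and 461 and 2171, and for siTIP60-11 against siTIP60-2 they were 3577 and 3348, 4388 and 2652, and 3762 and 1459. The line difference for BRD8 had 2174 lower and 3812 higher, 2879 and 3094 with RLE size factors, 2767 and 2867 with DESeq2, and 1025 and 4917 on TPM. That for TIP60 had 2282 and 3141, 1630 and 3997 with total counts only, and 948 and 4186 on TPM. SW480 libraries were the shallower.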
